A study of Mus musculus with 2 samples.

Results

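The expression of 9 complement genes was examined in single cells of regenerating mouse muscle: C1qa, C1ra, C2, C3, C4b, C7, Serping1, Fcna and the C3a receptor gene C3ar1. They were taken by name from a table of 19169 genes, in which all 9 were listed. The table holds 2 libraries of gastrocnemius muscle from male mice, both taken on day 14 after cardiotoxin, a toxin from snake venom that kills muscle fibers and leaves muscle stem cells (MuSCs) able to rebuild them. One library is labelled WT-CTX and came from WT mice, and the other is labelled GSDME-KO-CTX and came from mice with a global deletion of Gsdme, a gene for a pore-forming protein; no uninjured library was analysed here, the ages are not given in the sources used here, and whether animals were pooled is not stated. With 1 library per genotype there is no replicate check, so no test between the libraries was run, and every interval is a 95% interval that covers counting error only.

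Complement is a set of blood and tissue proteins that tag microbes, dying cells and debris for removal. C1q, with its partners C1r and C1s, or a lectin such as ficolin A (Fcna), binds a target and leads to cleavage of C4 and C2, whose fragments cleave C3; the terminal proteins, C7 among them, then build a pore in membranes. The C1 inhibitor encoded by Serping1 holds back C1r, C1s and the lectin proteases, and the receptor encoded by C3ar1 lets cells respond to the small fragment C3a. The liver supplies much of the complement in plasma, while in tissues macrophages and stromal cells can make components locally. In muscle these stromal cells are fibro/adipogenic progenitors (FAPs), PDGFRA-positive cells that give rise to fibroblasts and fat cells.

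In GRCm38, the build that mm10 names, C3 lies at chr17:57203970-57228136, C4b at chr17:34728380-34743882 and C2 at chr17:34862604-34898265, all on the minus strand. C4b and C2 lie in a stretch of 169886 bases that includes both genes, and a gap of 85 bases separates C2 from Cfb, the gene for factor B. C1qa lies at chr4:136895917-136898803 on the minus strand, next to the other C1q chains, and C1ra at chr6:124512405-124523443 on the plus strand. Serping1 is at chr2:84765387-84775444, Fcna at chr2:25624666-25628030, C3ar1 at chr6:122847138-122856161 and C7 at chr15:4988762-5063740, each on the minus strand. All 9 are annotated as protein coding. C1ra has the near-identical copy C1rb and C4b the copy C4a, so reads could be split between such copies.

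The bases just upstream of a gene's start are shown for the members with a promoter in the RefSeq table (GRCm38.p6) that is free of annotated exons. They represent the stromal members, with C3 and C7, and the macrophage members, with Fcna and C3ar1, and hold the DNA in which lineage factors are usually sought. Capitals mark matches, on either strand, to the C/EBP motif TTGCNNAA in C3, the STAT motif TTCNNNGAA in C7 and the PU.1 core GAGGAA in Fcna. Each sequence reads 5′ to 3′ on the minus strand, and the places are chr17:57228137-57228386 for C3, chr15:5063774-5064023 for C7, chr2:25628031-25628224 for Fcna and chr6:122856162-122856407 for C3ar1.
C3: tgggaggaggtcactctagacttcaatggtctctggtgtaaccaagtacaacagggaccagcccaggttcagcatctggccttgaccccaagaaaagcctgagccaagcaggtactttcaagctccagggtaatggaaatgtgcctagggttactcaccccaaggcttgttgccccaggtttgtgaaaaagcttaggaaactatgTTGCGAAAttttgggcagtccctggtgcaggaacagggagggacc
C7: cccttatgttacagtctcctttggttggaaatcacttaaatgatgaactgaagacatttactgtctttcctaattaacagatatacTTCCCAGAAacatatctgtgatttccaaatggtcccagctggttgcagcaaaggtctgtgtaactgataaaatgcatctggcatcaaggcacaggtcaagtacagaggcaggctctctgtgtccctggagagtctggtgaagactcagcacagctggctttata
Fcna: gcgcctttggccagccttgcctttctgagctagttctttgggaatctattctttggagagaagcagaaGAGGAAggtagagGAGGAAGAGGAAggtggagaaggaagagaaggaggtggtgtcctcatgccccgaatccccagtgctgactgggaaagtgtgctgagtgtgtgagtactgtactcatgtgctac
C3ar1: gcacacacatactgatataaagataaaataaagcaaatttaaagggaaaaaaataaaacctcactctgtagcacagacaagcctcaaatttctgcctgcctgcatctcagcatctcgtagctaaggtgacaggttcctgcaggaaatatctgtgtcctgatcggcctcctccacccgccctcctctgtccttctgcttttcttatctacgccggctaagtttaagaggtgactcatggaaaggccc

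C3 held 1 C/EBP match, a motif found in 9.57% of 32817 RefSeq promoters cut to the same 250 bases. C7 held 1 STAT match, found in 7.01% of them. Fcna held 3 PU.1 cores, 2 of them directly adjacent; 18.5% of promoters cut to 194 bases held at least 1 and 0.241% held at least 3. The bases shown for C3ar1 held none of these motifs, and none of the 4 held an IRF motif, searched as GAAA, 2 bases and GAAA. A match is a run of letters and is not evidence that a factor binds there.

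The library labelled WT held 44758518 unique molecular identifiers (UMIs, each marking 1 captured RNA molecule) in 6354 cells, with a median of 5740 per cell, and the library labelled KO held 50930010 in 7078 cells, with a median of 5962.5. They shared 4 cell barcodes. The targeted gene was not lower in the library labelled KO: Gsdme had 225 UMIs, or 5.03 counts per 1000000 UMIs (CPM), in the library labelled WT and 237 UMIs, or 4.65 CPM, in that labelled KO, so every direction below rests on the labels. The part of the gene removed is not given in the sources used here, and reads outside it would check nothing. Cells were clustered without the complement genes, and 12203 cells in 17 types took a name from fixed markers, written here as "-like"; 12 types had 50 or more cells per library. The pericyte-like cells also carried endothelial markers. A further 1229 cells stayed unnamed, 915 of them low-depth droplets with a median of 747 UMIs. Of the marker sets, that of red cells scored highest in these droplets, while their leading genes were Igha and Jchain. The level of a gene in a type is the CPM of its pooled UMIs there. Below, pairs of values are given for the library labelled WT first and the library labelled KO second.

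The 9 genes divided between stroma and macrophages. FAP-like cells were 26.9% and 30.7% of all cells and held 29.0% and 36.1% of all UMIs, while macrophage-like cells were 12.98% and 14.1% of cells and held 9.87% and 10.4% of UMIs. FAP-like cells held 84.5% and 90.3% of the UMIs of C3, 90.0% and 91.5% of C7, 77.7% and 85.2% of C1ra, 76.2% and 83.0% of Serping1, and 74.0% and 69.9% of C2. Macrophage-like cells held 92.7% and 91.0% of the UMIs of C1qa, 92.9% and 92.6% of C3ar1, and 89.3% and 89.7% of Fcna. C4b was the member shared between lineages, with 54.2% and 68.1% in FAP-like, 29.1% and 19.0% in macrophage-like and 7.72% and 4.75% in Schwann-like cells. These shares follow the number of cells of a type as well as the level per cell. Without integration of the libraries, 446 and 396 cells led by Inmt, Sfrp2 and Gdf10 formed a shallow cluster that took no name and so left the FAP-like cells, in which C7 then had 42.4% and 61.8%, C2 32.8% and 41.6%, and C4b 23.5% and 34.5% of their UMIs.

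**Figure D1:**
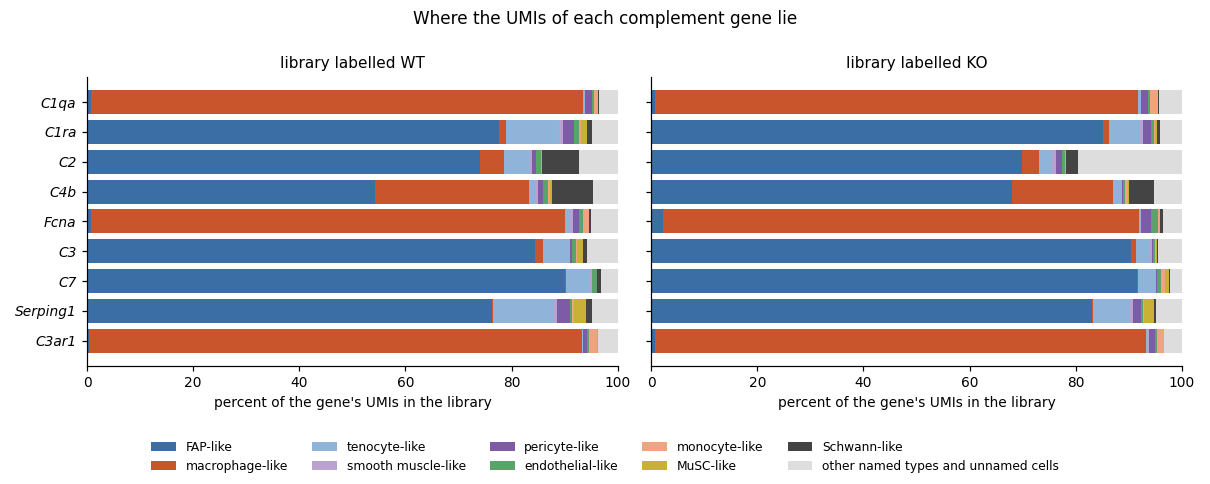
Share of each gene's UMIs (%, x axis) that lay in each group of cells, with 1 bar per library for each of the 9 genes. More than 89% of the C1qa, C3ar1 and Fcna UMIs lay in macrophage-like cells of both libraries, while C3, C7, C1ra, Serping1 and C2 lay mainly in FAP-like cells and C4b was divided.

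By level, FAP-like cells stood highest for 4 of the 9 under the WT label (C3, C7, C1ra and Serping1) and for 5 under the KO label, where C2 joined them. Of all genes with at least 50 UMIs, 4.93% and 4.68% were highest in that type. All of C1qa, C3ar1 and Fcna were highest in macrophage-like cells, where 6.6% and 6.18% of all such genes had their highest level. Schwann-like cells held the highest level of C4b in both libraries and of C2 in the library labelled WT, against 15.5% and 16.7% of all such genes. The ranks are over those 12 types.

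**Figure D2:**
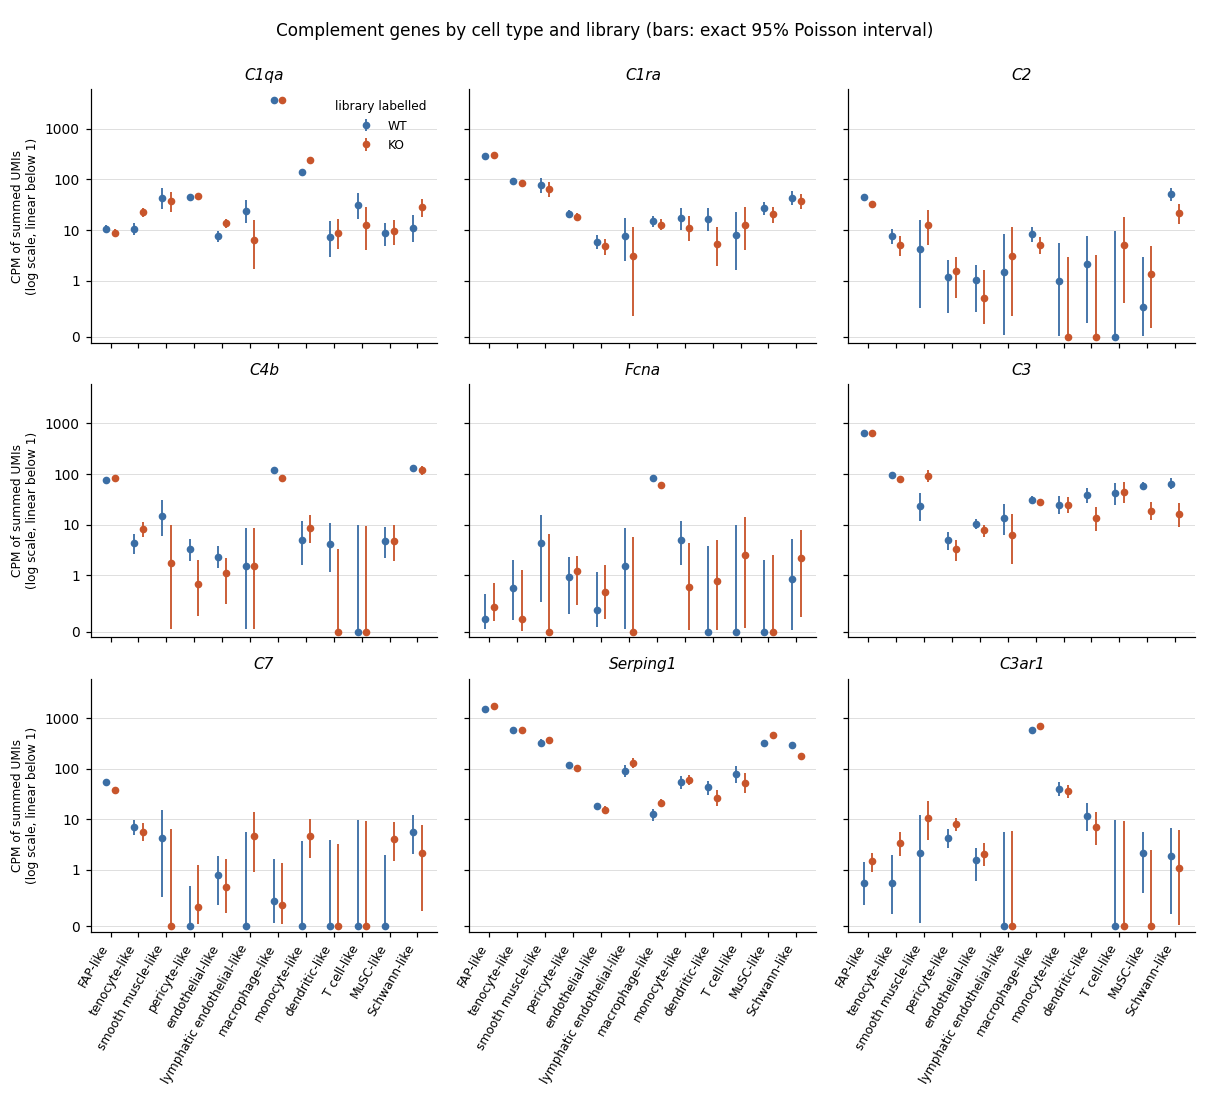
Level of each gene (CPM, log axis, linear below 1) in each cell type, with 1 point per library and exact Poisson 95% intervals. C1qa, C3ar1 and Fcna stood highest in macrophage-like cells, and C3, C7, C1ra and Serping1 in FAP-like cells, in both libraries.

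C3, the component on which all routes of activation converge, stood at 638 CPM (625 to 652) and 661 CPM (649.8 to 673) in FAP-like cells. Under the WT label the next levels were 96.1 CPM in tenocyte-like and 64.9 CPM in Schwann-like cells, and under the KO label they were 93.6 CPM in smooth muscle-like and 78.2 CPM in tenocyte-like cells, whose intervals overlapped. Macrophage-like cells held 31.0 and 27.5 CPM and endothelial-like cells 10.2 and 7.69 CPM. After each cell was thinned to 1000 UMIs, 29.7% and 31.3% of FAP-like cells had a C3 UMI, against 1.05% and 0.904% of endothelial-like cells; unthinned, the FAP-like shares were 52.1% and 54.1%, at median depths of 7425 and 8259.5 UMIs for FAP-like and 4243 and 3971 UMIs for endothelial-like cells. C3 UMIs were thus found in a minority of thinned FAP-like cells, in contrast to Serping1.

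C7, a terminal component, was at 53.9 CPM (50.003 to 58.1) and 38.2 CPM (35.5 to 41.2) in FAP-like cells. Its next level was in tenocyte-like cells, at 6.96 and 5.65 CPM, and in macrophage-like and endothelial-like cells it was under 1 CPM in both libraries. Of thinned FAP-like cells, 4.93% and 4.04% had a C7 UMI.

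C1ra, the mouse C1r protease, was at 288 CPM (279 to 298) and 304 CPM (296 to 312) in FAP-like cells. Tenocyte-like cells held 91.5 and 86.6 CPM and smooth muscle-like cells 77.6 and 63.6 CPM, and these intervals overlapped. Schwann-like cells held 43.6 and 37.9 CPM, which is 15.1% and 12.5% of the FAP-like level and within the range of the FAP markers there, the highest of which reached 25.1% and 14.5%. Endothelial-like cells held 5.88 and 4.75 CPM. A C1ra UMI was found in 24.4% and 27.2% of thinned FAP-like cells.

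Serping1, the C1 inhibitor, was read in most FAP-like cells: 72.5% and 78.6% of them had a UMI after thinning, and 95.7% and 97.8% before it. Its level there was 1501 CPM (1480.3 to 1523) and 1699 CPM (1680.3 to 1718). Tenocyte-like cells followed with 571 and 589.5 CPM, then, in the library labelled WT, smooth muscle-like cells with 324 CPM and MuSC-like cells with 314 CPM, which overlapped. In the library labelled KO, MuSC-like cells held 467 CPM (432 to 503) and smooth muscle-like cells 376 CPM (327 to 430.4). At the other end of the order were endothelial-like cells, at 18.0 and 15.2 CPM, and macrophage-like cells, at 12.5 and 21.1 CPM.

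C2, the protease that C1s cleaves, was at 45.6 CPM (42.0 to 49.4) and 33.2 CPM (30.7 to 36.0) in FAP-like cells. In Schwann-like cells it was at 51.0 CPM (38.4 to 66.4) and 21.6 CPM (13.2 to 33.4), and the intervals of these types overlapped in both libraries. Macrophage-like cells held 8.38 and 5.08 CPM and endothelial-like cells 1.04 and 0.699 CPM.

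C4b, the mouse C4 gene, was the only member with its highest level outside FAP-like and macrophage-like cells in both libraries. Schwann-like cells held 129.8 CPM (109 to 153) and 118 CPM (96.9 to 142), the first of which overlapped the interval of macrophage-like cells. Macrophage-like cells held 119.6 CPM (109.6 to 130.2) and 82.3 CPM (74.7 to 90.4), and FAP-like cells 75.8 CPM (71.1 to 80.7) and 84.8 CPM (80.7 to 89.2). Macrophage-like cells therefore stood above FAP-like cells under the WT label, whereas their intervals overlapped under the KO label. Every other type with at least 50 cells held under 20 CPM.

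Among the macrophage genes, C1qa, a chain of the C1q recognition molecule, was at 3795 CPM (3738 to 3853) and 3637 CPM (3585 to 3688) in macrophage-like cells, and 91.1% and 94.6% of them had a UMI after thinning. Monocyte-like cells came next with 139 CPM (117 to 164) and 241 CPM (214 to 269), then pericyte-like cells with 45.2 and 46.9 CPM. The pericyte-like level rests on few cells, as 41.6% and 27.3% of its UMIs lay in the 2 highest cells of each library. FAP-like cells held 10.5 and 8.85 CPM. Of thinned endothelial-like cells, 0.972% and 1.89% had a UMI (4.10% and 6.12% unthinned), at the median depths given above.

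The 3 C1q chains are assembled together, and their ratio was compared between types. C1qa made up 34.4% (34.0 to 34.8) and 34.7% of the C1qa, C1qb and C1qc UMIs of macrophage-like cells. In monocyte-like cells it made up 22.5% (19.2 to 26.0) and 24.1% (21.8 to 26.6), while C1qb made up 63.2% and 58.5%, against 42.3% and 41.4% in macrophage-like cells. The mix of chains in monocyte-like cells thus differed from that in macrophage-like cells by more than counting error in both libraries. The C1qa UMIs of monocyte-like cells lay in 30 of 106 and 44 of 141 cells, and those of pericyte-like cells in 33 of 338 and 38 of 391. In FAP-like cells the C1qa share was 39.3% (34.1 to 44.7) and 39.2% (34.5 to 44.1). In pericyte-like cells it was 37.3% (33.4 to 41.2) and 40.3% (36.6 to 44.1). Endothelial-like cells had 33.0% (26.1 to 40.4) and 45.5% (38.7 to 52.5). Under the KO label the pericyte-like and endothelial-like intervals lay above the macrophage-like share.

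C3ar1, the receptor, was at 591 CPM (568 to 614) and 685 CPM (663 to 707) in macrophage-like cells, and 40.8% and 47.2% of them had a UMI after thinning. Monocyte-like cells held 39.9 and 35.6 CPM and dendritic-like cells 11.5 and 7.12 CPM. FAP-like cells, which held most C3 UMIs, had 0.770 and 1.47 CPM of the receptor, from 10 and 27 UMIs. Macrophage-like cells, which held most C3ar1 UMIs, also held the C3 level given above.

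Fcna, a lectin of the ficolin family, was at 83.1 CPM (74.8 to 92.1) and 60.8 CPM (54.4 to 67.8) in macrophage-like cells, where 6.76% and 6.44% of thinned cells had a UMI. No other type with at least 50 cells reached 5 CPM, and thinned FAP-like cells had a UMI in 0 of 1682, which allows a share of up to 0.178%, and in 0.0464%. Unthinned, 143 of 825 and 147 of 995 macrophage-like cells had a UMI (17.3% and 14.8%).

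RNA set free from other cells, and doublets, also place UMIs in a type. Each low level was therefore set beside the 8 FAP markers or the 9 macrophage markers in the same cells, as a percent of their level in their own type. In endothelial-like cells C3 was at 1.60% and 1.16% of its FAP-like level and the median FAP marker at 1.27% and 1.02%. C1qa was at 0.1996% and 0.373% of its macrophage-like level there, against a median macrophage marker of 0.328% and 0.318%. Both genes were thus near the level of the median marker in endothelial-like cells. Whether these values are background was not tested.

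Some levels stood above every marker of the other lineage. In Schwann-like cells C4b was at 171% and 139% and C2 at 112% and 65.1% of the FAP-like level, above all 8 FAP markers, the highest of which reached 25.1% and 14.5%; the FAP markers summed to 9552 and 5622 CPM there and none was at 0. In macrophage-like cells C4b was at 158% and 97.0% and C3 at 4.86% and 4.16%, again above all 8, of which the highest reached 1.70% and 2.08%. In MuSC-like cells Serping1 was at 20.9% and 27.5%, above 7 and 8 of the 8 markers, whose median was 5.85% and 5.93%. In lymphatic endothelial-like cells it was at 5.97% and 7.71%, above all 8. By contrast C3 in Schwann-like cells, at 10.2% and 2.45%, stood above 1 of the 8 markers, whose median was 13.1% and 7.91%.

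Small types gave values that rest on few cells. Neutrophil-like cells held 18 C3 UMIs in 12 of 21 cells (177 CPM) and 16 in 11 of 32 cells (111 CPM), above all 8 FAP markers. B cell-like cells held 1 C1qa UMI in the library labelled WT and 98 in that labelled KO, of which 61 and 33 lay in single cells. The droplets of low depth carried UMIs of both lineages: C3 was at 239 and 179 CPM and Serping1 at 487 and 531 CPM, with the median FAP marker at 53.2% and 55.5% of its FAP-like level.

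The FAP-like cells were clustered again, again without complement genes, and named from the fixed markers of subsets; a name gives the markers, and groups with no name are given by their leading genes. The Pi16 Dpp4 group held 272 and 355 cells, the Sfrp4 Gdf10 group 238 and 265, the Clu Cyp2f2 Myoc group 264 and 285, the Hsd11b1 Mme group 154 and 162, and the group led by Dlk1 and Tnc 628 and 909. The rest of the cells lay in smaller or shallow groups, of which the group led by Myl1 and Ckm (127 and 176 cells) had a median of 1549 and 1815.5 UMIs. The Sfrp4 Gdf10 group was led by Fmod and Comp, with Sfrp4, Gdf10 and Tnmd also among its top 10 genes. Fmod, Comp and Tnmd are among the fixed tenocyte markers.

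Among these 5 groups C3 was highest in the Pi16 Dpp4 group, at 1099 and 1310.3 CPM, and in the Sfrp4 Gdf10 group, at 1091 and 872 CPM. It was lowest in the Clu Cyp2f2 Myoc group, at 169 and 231 CPM, with the Hsd11b1 Mme group at 345 and 529 CPM and the group led by Dlk1 and Tnc at 468 and 426 CPM. The shallow group led by Myl1 and Ckm stood above all 5, at 1553.6 and 1772 CPM.

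Of these 5 groups the Sfrp4 Gdf10 group had the highest C2, C4b and C7. C2 stood there at 178.5 CPM (159 to 199) and 127.6 CPM (113 to 143), followed by the Clu Cyp2f2 Myoc group at 76.4 and 63.7 CPM, while the Pi16 Dpp4 group held 8.27 and 5.79 CPM. C4b was at 259.9 and 331 CPM, against at most 66.7 and 66.9 CPM in the other 4 groups, and the shallow group led by Myl1 and Ckm held 127.0 and 215.7 CPM. C7 was at 195.5 and 101.9 CPM, with the Clu Cyp2f2 Myoc group next at 66.7 and 44.7 CPM. The exact levels depended on the borders of the group: clustered again at a finer resolution (0.8 in place of 0.4), C4b in the Sfrp4 Gdf10 group of the library labelled KO was 175 CPM, C2 was 288 and 221 CPM and C7 294 and 124 CPM. The C4b order did not hold at finer resolutions. At 0.8 a shallow group led by Dnm3os and Ckm held 262 CPM of C4b in the library labelled KO, above the Sfrp4 Gdf10 group, and a group led by Igkc and Tnc (188 and 321 cells) was at 138 and 177 CPM. At 1.2 C4b was itself the leading gene of an unnamed group of 66 and 105 cells, where it stood at 326 CPM (279 to 379) and 558 CPM (509.6 to 609.7), against 252.9 and 190.6 CPM in the Sfrp4 Gdf10 group. C2 and C7 were still highest in the Sfrp4 Gdf10 group at 1.2, at 280.2 and 225 CPM and at 290.1 and 127.8 CPM.

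C1ra and Serping1 varied less. C1ra ranged from 241 to 338 CPM over these 5 groups for the WT label and from 264 to 362 CPM in that labelled KO, and Serping1 from 1241 to 1971 CPM and from 1390 to 1989 CPM. The C1 protease and its inhibitor thus varied less among these groups than C2, C4b and C7 did.

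**Figure D3:**
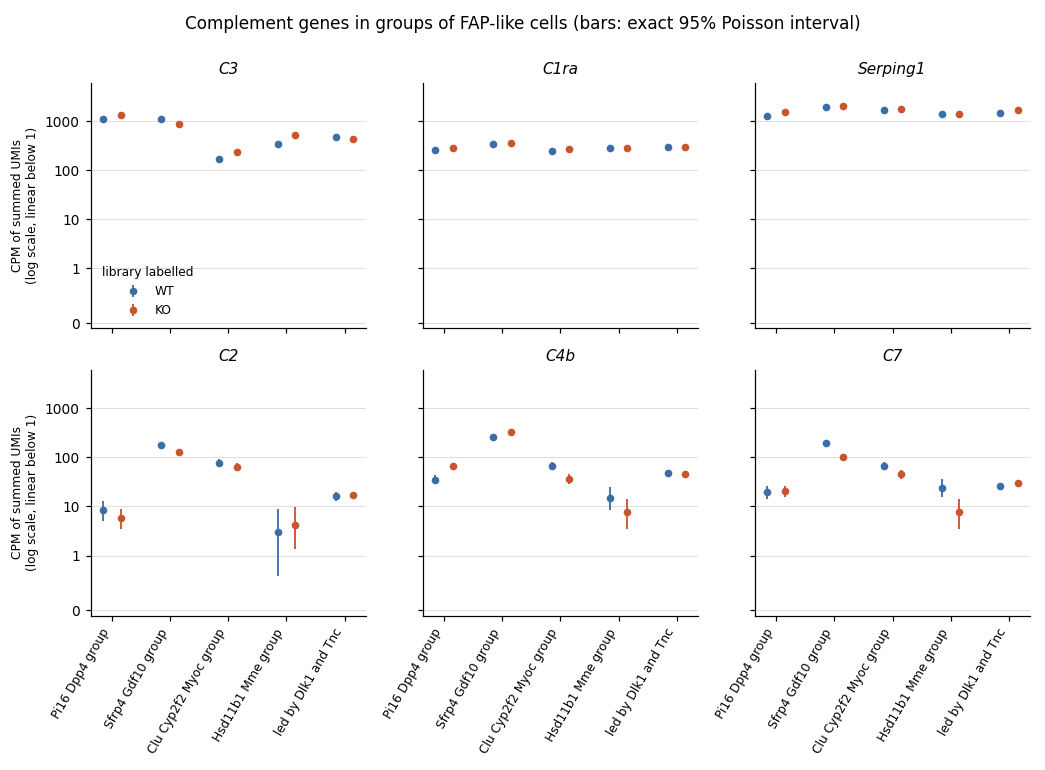
Level of C3, C7, C1ra, Serping1, C2 and C4b (CPM, log axis, linear below 1) in 5 groups of FAP-like cells, with 1 point per library and exact Poisson 95% intervals. Of the groups drawn, the Sfrp4 Gdf10 group had the highest C2, C4b and C7 in both libraries, and C1ra and Serping1 differed least among groups.

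The macrophage-like cells held a Lyve1 Folr2 group (169 and 184 cells), which carries markers of resident macrophages, a Trem2 Gpnmb group (171 and 215 cells) and a group led by Tulp3 and Hspa1b (298 and 375 cells). The Trem2 Gpnmb group was led by Mmp12, Cxcl3 and Cxcl1, with Gpnmb the only marker of its name among its top 10 genes, and at the finer resolution it split into a Trem2 Gpnmb group (68 and 73 cells) and a Ccl7 Tnf group (98 and 138 cells). C1qa was within a narrow range, at 4547 and 3912 CPM, 3379 and 3908 CPM, and 3845 and 3379 CPM in that order. C3ar1 was at 529 and 769 CPM, 632 and 728 CPM, and 623 and 649.6 CPM. Both were therefore read throughout these groups.

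Of these 3 groups the Lyve1 Folr2 group had the highest Fcna and C4b. Fcna was at 313 CPM (276 to 354) and 241.5 CPM (211 to 276) there, against 6.34 and 1.17 CPM in the Trem2 Gpnmb group and 32.4 and 31.1 CPM in the group led by Tulp3 and Hspa1b. C4b was at 381 CPM (340 to 426) and 268 CPM (235 to 304), against 7.04 and 7.61 CPM and 60.7 and 51.0 CPM. Before thinning, 83 of 169 and 77 of 184 cells of the Lyve1 Folr2 group had an Fcna UMI. A shallow group led by Hbb-bt and Hbb-bs (151 and 174 cells, with a median of 940.0 and 961.5 UMIs) held C4b at 305 CPM (228 to 400.3) and 257 CPM (190.5 to 340.4), intervals that overlapped those of the Lyve1 Folr2 group, and Fcna at 129 and 121 CPM. The genes also met in single cells: of thinned macrophage-like cells with an Fcna UMI, 18 of 50 and 15 of 58 had a C4b UMI (36% and 25.9%), against 9.86% and 6.29% of those without.

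**Figure D4:**
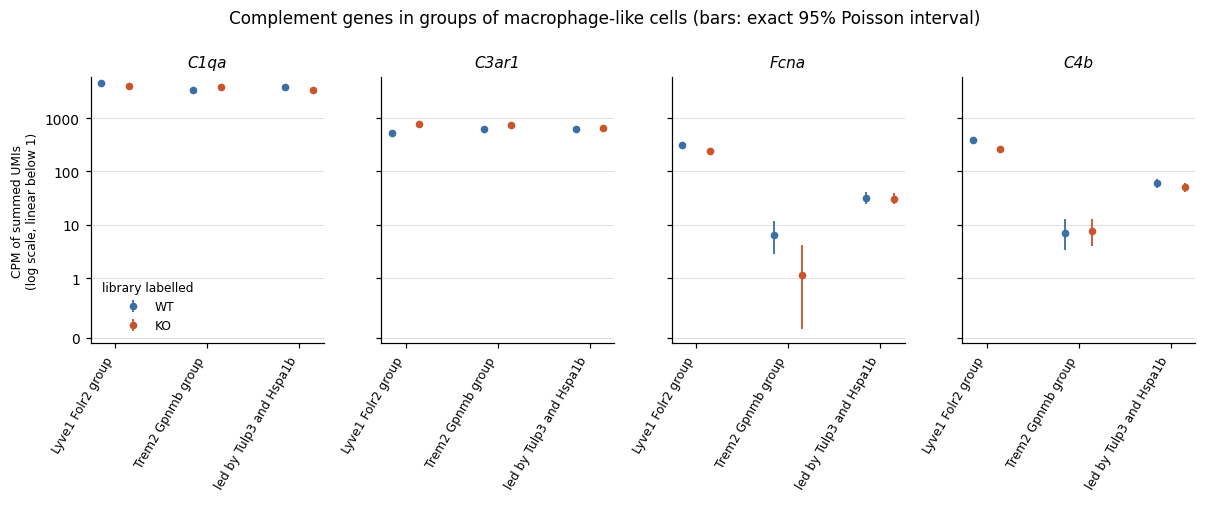
Level of C1qa, C3ar1, Fcna and C4b (CPM, log axis, linear below 1) in 3 groups of macrophage-like cells, with 1 point per library and exact Poisson 95% intervals. Of the groups drawn, the Lyve1 Folr2 group had the highest Fcna and C4b, whereas C1qa and C3ar1 differed little among the groups.

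To compare the genotypes, each member with at least 50 UMIs in a type was given as the log2 ratio of its CPM, KO over WT. A ratio is called past 1.5-fold when it reached 1.5 in either direction and its interval left out 1. In FAP-like cells 0 of 7 members passed, where 9.09% of all genes tested did. The median log2 ratio of the 7 was 0.05, beside -0.06 over all genes. C7 (-0.50, -0.65 to -0.34) and C2 (-0.46, -0.62 to -0.29) were the members furthest from 0, and without integration, where that shallow cluster is left out, they were -0.05 and -0.10. C3 was at 0.05 (0.01 to 0.09) and Serping1 at 0.18 (0.15 to 0.20).

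In macrophage-like cells 1 of 8 members passed, against 10.1% of all genes, with a median of -0.20 beside -0.04. Serping1 was higher in the library labelled KO, at 0.76 (0.28 to 1.25), from 55 and 112 UMIs. The 8 FAP markers in these cells summed to 795 and 985 CPM, none of them at 0, and a group led by Meg3 and Dcn, of 11 and 16 macrophage-like cells, held 307 and 336 CPM of Serping1; their part in the difference was not tested. C4b (-0.54, -0.73 to -0.35), Fcna (-0.45, -0.67 to -0.23), C3ar1 (0.21, 0.14 to 0.29) and C1qa (-0.06, -0.09 to -0.03) did not pass.

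In Schwann-like cells 3 of 5 members passed, all lower in the library labelled KO, where 9.65% of all genes passed. C3 was at -1.999 (-2.91 to -1.18), C2 at -1.24 (-2.05 to -0.47) and Serping1 at -0.73 (-1.01 to -0.45). They rest on few cells: C3 on 70 UMIs in 16 cells and 15 in 7, C2 on 55 UMIs in 22 cells and 20 in 8, and Serping1 on 312 UMIs in 45 cells and 161 in 33. FAP markers in these cells were also lower in the library labelled KO (summed 9552 and 5622 CPM), and their part was not tested. C4b, at -0.14, did not pass.

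In MuSC-like cells 1 of 3 passed, against 19% of all genes: C3 was lower in the library labelled KO, at -1.63 (-2.28 to -1.02), from 109 UMIs in 15 cells and 28 in 16, with 45 of the 109 in 1 cell. Without cells called doublets by Scrublet it was -0.46 and no longer passed. Serping1 in MuSC-like cells was at 0.57 and did not pass. In endothelial-like cells 1 of 4 passed (6.91% of all genes), with C1qa higher in the library labelled KO at 0.84 (0.36 to 1.34); the macrophage markers there summed to 129 and 96.3 CPM. In monocyte-like cells 1 of 4 passed (13.4%), with C1qa higher at 0.80 (0.50 to 1.10), and without integration of the libraries it was 0.07.

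In several further types a few cells held many of the UMIs. Smooth muscle-like cells had 1 of 3 past the fold (13.4% of all genes), C3 being higher at 1.98 (1.03 to 3.07), but 21 and 18 of its 53 UMIs in the library labelled KO lay in 2 cells, and without the 2 highest cells of each library it was 0.71 and did not pass. In tenocyte-like cells 2 of 7 passed (9.86%), C1qa at 1.10 and C4b at 0.94, and neither passed without those cells (0.65 and 0.31). In dendritic-like cells 1 of 2 passed (13.4%), C3 being lower at -1.54, and without those cells it was -0.40. In pericyte-like cells 1 of 4 passed (7.64%), C3ar1 being higher at 0.90 (0.14 to 1.70). That ratio rests on 22 UMIs in 10 cells and 47 in 15. Without the 2 highest cells of each library it was 1.22 (0.22 to 2.31), from 12 and 32 UMIs, which is under the limit of 50. T cell-like and lymphatic endothelial-like cells had 0 of 1 each, against 16.5% and 11.1% of all genes.

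Among the FAP-like groups, 1 of 5 members passed in the Pi16 Dpp4 group (7.84% of all genes), with C4b higher in the library labelled KO at 0.93 (0.56 to 1.30), from 85 and 231 UMIs. In the Clu Cyp2f2 Myoc group 1 of 6 passed (7.03%), with C4b lower at -0.85 (-1.29 to -0.41), and at the finer resolution it was -0.47 and did not pass. In the Sfrp4 Gdf10 group 1 of 6 passed (9.5%), C7 being lower at -0.94 (-1.19 to -0.70), from 346 and 234 UMIs. In the Hsd11b1 Mme group 1 of 3 passed (10.4%), C3 being higher at 0.62 (0.43 to 0.81), and in the group led by Dlk1 and Tnc 0 of 7 passed (12.9%). No member passed in the Lyve1 Folr2 group (0 of 4, against 11.2%), the Trem2 Gpnmb group (0 of 3, against 12.9%) or the group led by Tulp3 and Hspa1b (0 of 6, against 10%).

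**Figure D5:**
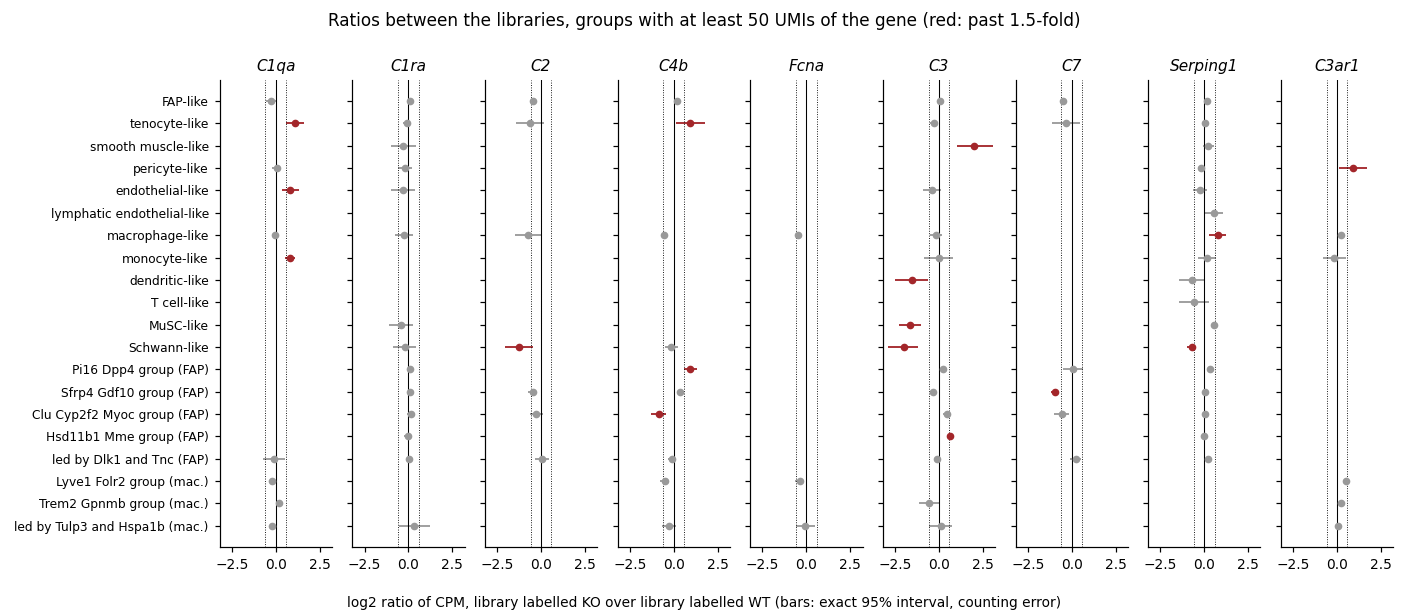
Log2 ratio of CPM, KO over WT, for each member in each group drawn with at least 50 UMIs of it, with exact 95% intervals and dotted lines at 1.5-fold either way. The shallow groups are not drawn. In FAP-like cells all 7 ratios lay inside the lines, and the ratios furthest out were those of C3 in Schwann-like and smooth muscle-like cells.

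The rest of the pathway was followed in 42 further genes, of which 35 were in the table and the others were not analysed here; 20 had at least 50 UMIs in a library. Of the classical pathway, C1qb (4671 and 4339 CPM) and C1qc (2570.2 and 2498 CPM) were highest in macrophage-like cells, like C1qa. C1s1, the partner of C1r, was at 768 and 926 CPM in smooth muscle-like cells and 594 and 691 CPM in FAP-like cells. Of the lectin and alternative pathways, Colec12 (210.6 and 196.5 CPM), Cfb (40.1 and 35.5 CPM) and Masp1 (4.08 and 6.19 CPM) were highest in FAP-like cells, and Cfp, which encodes properdin, in monocyte-like cells (563 and 568 CPM). Of the terminal components besides C7, Hc had 8 UMIs in each library, C6 had 6 and 20, C8g 25 and 30 and C9 5 and 5.

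The inhibitors were spread over more types. Cd55 was highest in FAP-like cells (259.7 and 299.8 CPM), Vtn in smooth muscle-like cells (1497 and 1094 CPM) and Cd59a in Schwann-like cells (315 and 309.5 CPM). Among receptors, C5ar1 (442 and 457 CPM) and C5ar2 (39.9 and 34.6 CPM) were highest in macrophage-like cells, as was C3ar1, while the integrin chains Itgam (250.4 and 299 CPM), Itgax (171 and 166 CPM) and Itgb2 (342 and 324 CPM) were highest in monocyte-like cells.

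Between the libraries, 2 of the 12 pathway genes tested in FAP-like cells passed 1.5-fold: Masp1 was higher in the library labelled KO (0.60, from 53 and 114 UMIs) and Cd59a lower (-1.43). In macrophage-like cells 2 of 14 passed, Cfb (-0.59) and Colec12 (-0.86), both lower. In Schwann-like cells 3 of 6 passed, Cd55 (-1.24), Vtn (-1.21) and C1s1 (-0.67), all lower, in cells where the FAP markers summed to 9552 and 5622 CPM; their part was not tested. In tenocyte-like cells C1qb (1.24) and C1qc (1.01) were higher, C1s1 was higher (0.68) and Cd59a lower (-0.71). Without the 2 highest cells of each library C1qb there was 0.97 (0.08 to 1.90), from 18 and 30 UMIs, which is under the limit of 50, and C1qc was 0.95 (-0.21 to 2.18), from 11 and 18. The macrophage markers in tenocyte-like cells summed to 204 and 257 CPM, and their part was not tested. In endothelial-like cells 1 of 10 passed, lower, while C1qb (-0.04, -0.53 to 0.45) and C1qc (0.26, -0.37 to 0.90) did not. In dendritic-like cells 2 of 6 passed, both higher. In MuSC-like cells 1 of 7 passed, higher, and in pericyte-like cells 1 of 13, lower. In monocyte-like cells 1 of 8 passed, C1qc, which was higher (0.97), while C1qb was at 0.58. Of 10 tested in each macrophage-like group, 2 were lower in the Lyve1 Folr2 group and 1 in the group led by Tulp3 and Hspa1b. In the Trem2 Gpnmb group 1 was higher and 2 lower. Among FAP-like groups, 1 of 7 was higher in the Pi16 Dpp4 group. In the group led by Dlk1 and Tnc, 2 of 10 were higher and 1 lower. The shares of all genes past the fold in these types and groups are those given above.

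Genes with the pattern most like each member were found by Pearson's r of log2(CPM + 1) over 24 points, the 12 types in both libraries; the points share libraries and depth, so r is a description. C1qa was most like C1qc and C1qb (0.98 each), C3ar1 like Msr1, Csf1r and Ccl3 (0.93 each), and Fcna like Cd209f (0.94), Cbr2 (0.93) and Mucl1 (0.92). C3 was most like Pdgfra (0.94), Gsn (0.93) and Smoc2 (0.91), C1ra like Vasn and Col6a2 (0.94 each), and Serping1 like Col5a2 (0.97), Sdc2 (0.96) and Antxr1 (0.95). C2 was most like Adamtsl2 (0.90) and C7 like Adgrd1, Sdk1 and Myoc (0.82 each). C4b was most like Hnmt (0.89) and Pmp22 (0.85), a myelin gene.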

How the data were processed

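Muscle cells of 1 WT and 1 Gsdme-KO library were captured with the 10x Genomics Chromium 5′ kit. The labels name Cell Ranger 2.1.1 and mm10; by their methods the authors then worked in Seurat, took out doublets (DoubletFinder) and dropped cells rich in mitochondrial RNA. The authors deposited 1 table of natural log values, ln(1 + UMIs per 10000 UMIs of the cell); the barcode suffix gives the library. Undoing the log gave whole UMIs within 0.2925 UMI, in 13432 cells with 385 to 83203 UMIs; this step and the ratio intervals were tested on simulated data. No mitochondrial gene was listed.

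Cells were clustered at resolution 0.8 after Harmony's steps, rewritten in numpy, on variable genes, with the 9 members and 42 pathway genes left out, and named from fixed markers. FAP-like and macrophage-like cells were clustered again at resolution 0.4, which was chosen after clusters had been seen, as were parts of the naming rules. Doublets stayed as the authors left them; Scrublet marked 101 and 109 further cells, left out as an alternative. The members and lists were chosen with earlier results of these data known. CPM carry exact Poisson intervals, shares exact binomial (Clopper-Pearson) intervals and ratios an exact interval made from the KO share of both libraries' UMIs, at 95%. Ratios need 50 UMIs over both libraries; types need 50 cells in each to be ranked. A share of 0 is limited by 3 counts. Shares of cells were taken after thinning to 1000 UMIs. All 9 members are named. Most pathway genes with 50 UMIs in a library are named in the type where they are highest. Of those that passed 1.5-fold, some are named and the rest are given by number only. Terminal components are also given by their UMIs. The 3 genes most alike are from those with at least 500 UMIs, and some are left out of the text. The results of 1 pathway gene are not reported here. The tools were igraph 0.11.9, scikit-learn 1.9.0, matplotlib 3.10.9, scipy 1.17.1 and numpy 2.4.6 under Python 3.11.15. Alternatives covered resolution, integration, variable genes, shallow cells, doublets, thinning, averaging, the fold and UMI limits and added CPM.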

Additional observations from a re-analysis of the deposited data

Results flagged for a closer look

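With 1 library per genotype, differences between groups in the KO over WT ratio were not tested; each pair below moved past 1.5-fold in opposite directions. In the library labelled KO, C4b stood higher in the Pi16 Dpp4 group and lower in the Clu Cyp2f2 Myoc group, a difference of 1.78 in log2 ratio, and the second of these did not pass at the finer resolution. C3 was higher in the Hsd11b1 Mme group and lower in Schwann-like cells, a difference of 2.62; in Schwann-like cells C3 was at 10.2% and 2.45% of its FAP-like level, under the median FAP marker (13.1% and 7.91%), and the part of FAP markers was not tested. Serping1 was higher in macrophage-like and lower in Schwann-like cells, a difference of 1.49. It no longer passed in macrophage-like cells with a fold of 2 or with 10 CPM added (0.47), nor in Schwann-like cells with a fold of 2 or with the mean over cells (-0.33). FAP markers summed to 795 and 985 CPM in macrophage-like and to 9552 and 5622 CPM in Schwann-like cells, and their part was not tested.

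Clusters that took no name, and so entered no comparison, also held members, above the level of the same cluster in the library labelled WT. A cluster led by Top2a and Hist1h2ap, genes of dividing cells (57 and 36 cells), held C1qa at 117 CPM under the WT label and at 368 CPM under the KO label, where 92 of its 242 UMIs lay in 1 cell. A cluster led by Sfrp5 and Lypd2 (16 and 19 cells) held C2 at 141 and 827 CPM and Serping1 at 630 and 2721 CPM, while its C3 was at 838 and 170 CPM, with 120 of 125 and 25 of 27 UMIs in 1 cell. A cluster led by Dlk1 and Inhba (36 and 37 cells) held C3 at 164 and 422 CPM.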

How the results depend on the processing

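No paired analysis was possible because each genotype has 1 library, and no replicate could be left out. No ratio that passed 1.5-fold changed sign under any alternative run. With the mean over cells or with 10 CPM added, a ratio passed on the fold alone, with no interval. The number of members past the fold in endothelial-like cells (1 of 4) was 0 with a fold of 2 or with 10 CPM added and 2 with the mean over cells. In macrophage-like cells (1 of 8) it was 0 with a fold of 2 or with 10 CPM added, and 2 with the mean over cells, without cells under 1000 UMIs, or without low-depth droplets and shallow groups. Over the 12 types together it was 12, and 6 with a fold of 2. Of the ratios under alternatives, 308 kept their side of the fold, 29 no longer passed and 3 newly passed; with 10 CPM added Serping1 in macrophage-like cells was 0.47, C1qa in endothelial-like cells 0.42 and C3ar1 in pericyte-like cells 0.33. Of the levels, 52 moved by more than their counting interval and 102 did not, and of the shares of UMIs 30 moved and 78 did not. Of the results on shares of cells, 35 moved, all of them with the thinning depth, and 5 did not. These 2 numbers also include counts of members compared by their shares of cells. The finer resolutions within types, the removal of the 2 highest cells and the removal of shallow groups were chosen after seeing the data. Depth limits the low members most: over all cells C7 had 778 and 769 UMIs and Fcna 411 and 360.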
